A study of Mus musculus with 10 samples.

Results

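The let-7 hairpin loci are the genes that encode the precursors of the let-7 microRNAs, and they were taken as every row of the deposited count table whose symbol begins with Mirlet7. They are 9 of 38720 rows: Mirlet7a-1, Mirlet7a-2, Mirlet7b, Mirlet7c-1, Mirlet7c-2, Mirlet7d, Mirlet7f-2, Mirlet7g and Mirlet7i. The GENCODE M21 annotation holds 11 mouse hairpin genes whose symbol begins with Mirlet7, and Mirlet7e and Mirlet7f-1 are not analysed here. The study asked what Lin28 and let-7 do while the caudal body axis lengthens, and measured RNA from the microdissected tail bud at embryonic day 12.5 in 10 libraries. The Lin28a-induced group (replicates 2, 3, 4 and 5) carried TRE-Lin28a, a doxycycline-responsive transgene, RLSL-rtTA, a transactivator allele released by Cre, and FoxD1-Cre, and was treated with doxycycline. The no-Cre group (replicates 6, 7 and 8) had TRE-Lin28a, RLSL-rtTA and doxycycline too, but lacked Cre. For the wild-type group (replicates 1, 2 and 3) no transgene and no doxycycline is named in the labels. The Cre allele is driven by FoxD1, and the labels do not give the share of tail bud cells in which it acted. Nor do they say whether each library came from a separate embryo, and the p-values below cover only library-to-library spread, which may be technical.

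A let-7 gene is transcribed as a long primary RNA, from which Drosha cuts a hairpin, and Dicer then cuts the mature microRNA of about 22 bases from the hairpin's arm. LIN28 proteins bind the loop of the let-7 precursors, where the letters GGAG are a known contact of their zinc knuckles, and block both cuts or recruit enzymes that add a tail of uridines. Mature let-7 represses growth and progenitor genes and builds up as tissues differentiate. A read counted over a hairpin row can come from the primary transcript or the precursor, and mature let-7 was not measured by these libraries.

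The mature 5′ arms are shown because the family is defined by them, with the seed, bases 2 to 8, in capitals. The sequences are RefSeq's, on GRCm38.p6, and all 9 loci matched by symbol.
let-7a: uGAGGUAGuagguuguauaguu
let-7b: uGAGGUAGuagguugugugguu
let-7c: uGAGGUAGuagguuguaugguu
let-7d: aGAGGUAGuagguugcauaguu
let-7f: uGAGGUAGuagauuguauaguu
let-7g: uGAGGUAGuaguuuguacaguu
let-7i: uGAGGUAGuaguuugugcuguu
All 7 hold the seed GAGGUAG. The mature 5′ arms of let-7a, let-7c and let-7f are each held by 2 mouse hairpins, whereas those of let-7b, let-7d, let-7g and let-7i are each held by 1. A read that lies within such an arm therefore cannot be placed for let-7a, let-7c or let-7f. The arms are 22 bases long and the libraries were read to 75 bases, so a full-length read reaches beyond the arm. How the authors treated reads with several alignments is not stated in the labels.

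The stretch between the arms is the part that LIN28 binds, and it is shown for the loci with the most reads, with GGAG and either UGAU or UGAC in capitals.
let-7i: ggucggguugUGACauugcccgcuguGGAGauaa
let-7g: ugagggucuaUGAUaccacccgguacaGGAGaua
The letters GGAG stand in the stretch of 9 of the 11 annotated let-7 hairpins, all but let-7b and let-7c-2, against 5 of 42 other mouse hairpins whose stretch is also 23 to 34 bases long (11.9%). UGAU was found in 3 of the 11 (7.14% of the 42 others) and UGAC in 1 of the 11 (19.0% of the others). Only the strand of the hairpin was searched, and GGAG and the other 2 motifs do not overlap in these stretches. These are matches of letters, not measured binding sites.

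The libraries held 21762668 to 39517946 counts. Lin28a itself checked the labels, with 670, 608, 752 and 736 CPM (read counts adjusted for library depth) in Lin28a-induced replicates 2, 3, 4 and 5, against 5.07, 4.54 and 2.66 CPM in no-Cre and 6.12, 5.58 and 4.40 CPM in wild-type libraries. The summed level of 10 tail bud markers was 1210 to 1590 CPM in Lin28a-induced, 1250 to 1320 CPM in no-Cre and 627 to 1260 CPM in wild-type libraries. The wild-type libraries stood apart from both transgenic groups, with 1.85% to 2.69% of counts on mitochondrially encoded rows, against 0.446% to 0.690% in Lin28a-induced and 0.525% to 0.610% in no-Cre libraries. Summed macrophage markers were 113 to 138 CPM in Lin28a-induced, 98.1 to 118 CPM in no-Cre and 38.6 to 82.7 CPM in wild-type libraries. Of these 10 markers, edgeR called 7 higher and none lower in Lin28a-induced libraries against wild type, and 3 did not pass. For no-Cre against wild type, 5 were higher, 1 was lower and 4 did not pass. Summed neuron markers were 30.3 to 33.6 CPM in Lin28a-induced, 27.5 to 35 CPM in no-Cre and 60.2 to 76.1 CPM in wild-type libraries. The sum does not hold for every neuron marker. In each transgenic group against wild type, edgeR called 3 of the 10 lower and 1 higher, and 6 did not pass. Of all rows, 18.3% were lower and 20.2% higher in Lin28a-induced, and 15.4% and 17.4% in no-Cre libraries. The median log2 fold changes of the 10 neuron markers were -0.0854 in Lin28a-induced and 0.0751 in no-Cre libraries. The part of these differences in the results against wild type was not tested. In a bulk sample, fewer cells of a type and less RNA per cell cannot be told apart.

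Reads over let-7 hairpins were few, and most of them lay over let-7i and in the Lin28a-induced libraries. The 9 rows held 98 reads over the 10 libraries, of which 87 were in Lin28a-induced, 2 in no-Cre and 9 in wild-type libraries. Mirlet7i took 76 of the 98 reads (77.6%) and Mirlet7g 11. Mirlet7c-1 had 5, Mirlet7f-2 had 3, Mirlet7a-1 had 2 and Mirlet7b had 1, and Mirlet7a-2, Mirlet7c-2 and Mirlet7d were at 0 in all 10 libraries. The hairpin genes are of like length, 83 to 103 bases, so length alters the order of the raw counts little. Mirlet7a-1 and Mirlet7d lie in an exon of a host gene that has its own row. How reads over overlapping genes were counted is not stated, so the counts need not rank the loci by level. A test at this depth was made for the 2 loci with a total of at least 10 counts, Mirlet7i and Mirlet7g.

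**Figure D1:**
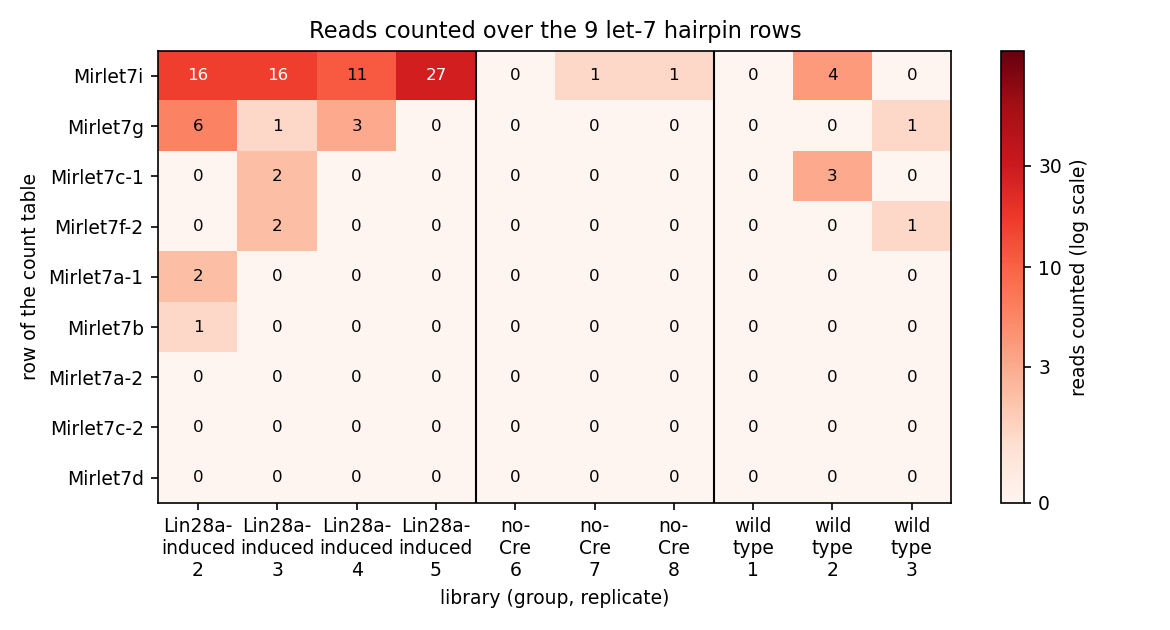
Reads counted over each of the 9 let-7 hairpin rows (vertical, in order of total count) in each of the 10 libraries (horizontal, group and replicate), with the count printed in each cell and a logarithmic colour scale. Mirlet7i is the row with 11 to 27 reads in the Lin28a-induced libraries, and 3 rows are at 0 throughout.

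Mirlet7i (ENSMUSG00000065406.3, chr10:122985640-122985724, minus strand, mm10) had 16, 16, 11 and 27 reads in Lin28a-induced replicates 2, 3, 4 and 5. It had 0, 1 and 1 reads in no-Cre replicates 6, 7 and 8, and 0, 4 and 0 reads in wild-type replicates 1, 2 and 3. Every Lin28a-induced library lay above all 6 control libraries, as did 5.56% of the 21133 rows tested, and 9.74% of rows had every Lin28a-induced library above every no-Cre library. Scaled for depth, the level was 0.509 ± 0.144 CPM in Lin28a-induced (SD, n = 4), 0.0215 ± 0.0187 CPM in no-Cre (SD, n = 3) and 0.0528 ± 0.0914 CPM in wild-type libraries (SD, n = 3). The exact Poisson 95% interval, which covers counting error only, ran from 0.173 to 0.619 CPM in Lin28a-induced replicate 4, the lowest of its group. It ran from 0.0432 to 0.406 CPM in wild-type replicate 2, the highest control library, so these 2 intervals overlap.

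**Figure D2:**
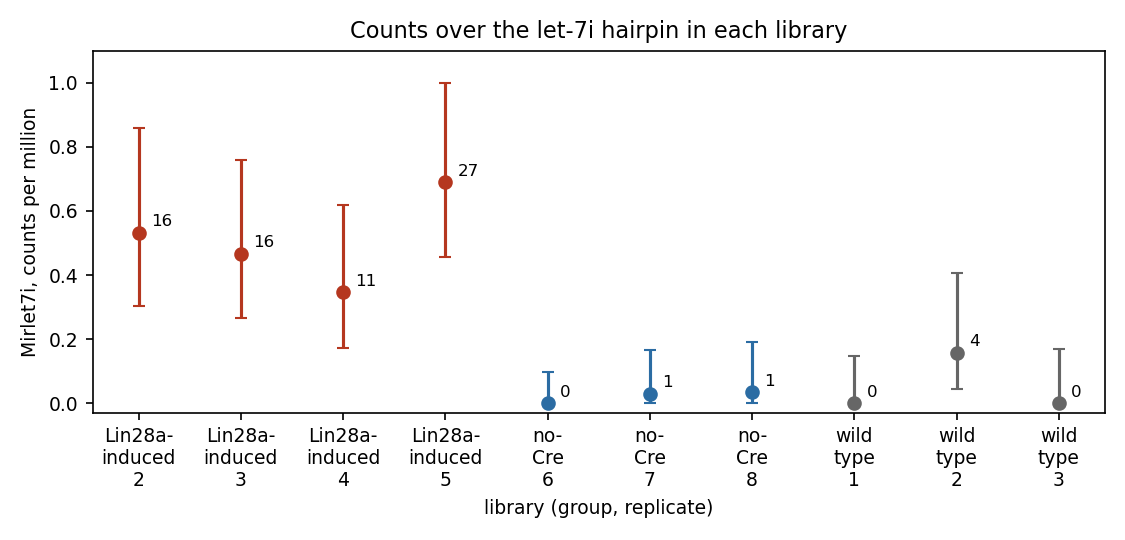
Level of the let-7i hairpin row in CPM (vertical axis) in each library (horizontal, group and replicate), with exact Poisson 95% intervals as bars and the read count beside each point. The 4 Lin28a-induced points sit between 0.346 and 0.690 CPM, above all 6 control points.

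Mirlet7i was higher in the Lin28a-induced tail buds than in both controls. Between Lin28a-induced and no-Cre libraries, which share both transgenes and doxycycline, it was the only let-7 row to pass, with a log2 fold change of 4.41 ± 0.895 (SE) and an adjusted p of 0.0166 by edgeR's quasi-likelihood test with Benjamini-Hochberg adjustment. In that comparison 1.88% of the 21133 rows passed, 1.16% higher and 0.719% lower, and Mirlet7i ranked 12 by log2 fold change. From the summed reads, 70 against 2, the ratio of levels was 26.0 (exact conditional 95% interval 6.94 to 219, counting error only). The call depends on single libraries: the adjusted p was 0.0707 without Lin28a-induced replicate 5, and 0.11, 0.091 and 0.0785 without no-Cre replicates 6, 7 and 8. The exact two-sided permutation test over libraries gave 0.0571, the smallest p that 4 against 3 libraries can give.

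Against wild type, Mirlet7i rose by a log2 fold change of 3.13 ± 0.817 (SE; adjusted p = 0.006, the same edgeR test), where 38.5% of all rows passed, 20.2% higher and 18.3% lower. The summed reads were 70 against 4, a ratio of 9.39 (3.51 to 35.4). All 4 wild-type reads lay in replicate 2, and the other wild-type libraries were at 0. With replicate 2 left out after its reads were seen, the Lin28a-induced level was 8.17 times a floor of 3 counts over the group. That value is not a lower bound, since the interval over all libraries began at 3.51. Leaving out any single library kept the adjusted p between 0.000377 and 0.0245. Both comparisons share the Lin28a-induced libraries.

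The no-Cre and wild-type groups did not differ detectably in Mirlet7i, with summed reads of 2 in no-Cre and 4 in wild-type libraries (ratio 0.361, interval 0.0327 to 2.52). The log2 fold change was -1.28 ± 1.26 (SE) with an adjusted p of 0.474 by edgeR, in a comparison where 32.8% of rows passed, 17.4% higher and 15.4% lower. The order of the 3 levels was therefore Lin28a-induced first, with the 2 control groups behind and not separated beyond their spread.

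Mirlet7g (ENSMUSG00000065440.1, chr9:106178840-106178927, plus strand) had 6, 1, 3 and 0 reads in Lin28a-induced replicates 2, 3, 4 and 5. It had no read in the 3 no-Cre libraries, and 0, 0 and 1 reads in the wild-type libraries. The groups overlap at 0, since Lin28a-induced replicate 5 had no read. The 10 reads of the Lin28a-induced group gave 2.48 times the level of a no-Cre group set at a floor of 3 counts over the group. The exact conditional 95% interval of the ratio, counting error only, began at 1.67. However, edgeR gave a log2 fold change of 4.33 ± 1.81 (SE) over no-Cre with an adjusted p of 0.31. Against wild type the summed reads, 10 against 1, gave a ratio of 5.37 (0.764 to 233), with a log2 fold change of 2.18 ± 1.56 (SE) and an adjusted p of 0.299 by edgeR. The exact permutation p was 0.229 against no-Cre and 0.4 against wild type.

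The other 4 loci with any read gave no call in an edgeR fit of all rows with at least 1 count. Mirlet7a-1 (chr13:48538179-48538272) had 2 reads, both in Lin28a-induced replicate 2, and Mirlet7b (chr15:85707319-85707403) had 1 read, in the same library. Mirlet7c-1 (chr16:77599657-77599750) had 2 reads in Lin28a-induced replicate 3 and 3 reads in wild-type replicate 2. Mirlet7f-2 (chrX:151912346-151912428) had 2 reads in Lin28a-induced replicate 3 and 1 read in wild-type replicate 3. None of these 4 had a read in a no-Cre library. Their adjusted p-values in that fit ran from 0.236 to 1. A floor of 3 counts is 0.0767 to 0.136 CPM in a single library, so levels under that value were not detectable.

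Added over the 9 rows, the level was 0.831, 0.612, 0.440 and 0.690 CPM in Lin28a-induced replicates 2, 3, 4 and 5. The no-Cre libraries had 0, 0.0298 and 0.0345 CPM (replicates 6, 7 and 8), and the wild-type libraries 0, 0.277 and 0.0907 CPM (replicates 1, 2 and 3). The lowest Lin28a-induced library lay above the highest control library, wild-type replicate 2. The means were 0.643 ± 0.163 CPM in Lin28a-induced (SD, n = 4), 0.0215 ± 0.0187 CPM in no-Cre (SD, n = 3) and 0.123 ± 0.141 CPM in wild-type libraries (SD, n = 3). Without Mirlet7i, the rows held 17 reads in Lin28a-induced, 0 in no-Cre and 5 in wild-type libraries.

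Many let-7 hairpins lie inside longer transcripts, some of which have rows of their own. The annotation places Mirlet7a-1 and Mirlet7d in an exon of the long noncoding RNA 6720427I07Rik. It places Mirlet7c-1 in an intron of Mir99ahg, whose row in the table is 2810055G20Rik, and Mirlet7a-2 in an intron of 3110039I08Rik, whose row is 2610203C20Rik, both matched through RefSeq synonyms. Mirlet7g lies in an intron of Wdr82, a subunit of histone H3 lysine methyltransferase complexes, and Mirlet7f-2 in an intron of Huwe1, a ubiquitin ligase. Mirlet7i lies in an exon of D630033A02Rik, and Mirlet7b and Mirlet7c-2 in an exon of Lncppara, and these hosts are not analysed here. Mon2, a gene of endosome to Golgi traffic, lies on the same strand as let-7i, with 6335 bases between them.

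The host of let-7a-1 and let-7d differed between all 3 groups. 6720427I07Rik had 7.81, 6.65, 4.34 and 5.88 CPM in Lin28a-induced, 3.13, 3.25 and 2.93 CPM in no-Cre and 9.28, 12.3 and 8.62 CPM in wild-type libraries, and no group overlaps another. It rose by a log2 fold change of 0.99 ± 0.189 (SE; edgeR adjusted p = 0.0117) in Lin28a-induced over no-Cre libraries. It fell by 0.71 ± 0.176 against wild type (adjusted p = 0.00432), and it fell by 1.70 ± 0.2 in no-Cre against wild-type libraries (adjusted p = 8.79e-06), all by edgeR. With no-Cre replicate 6, 7 or 8 left out, the adjusted p over no-Cre became 0.0752, 0.0682 or 0.0818. Of all 21133 rows tested, 9.74% had every Lin28a-induced library above every no-Cre library, and 1.16% passed as higher over no-Cre. Against wild type, 18.3% of rows passed as lower in Lin28a-induced and 15.4% in no-Cre libraries. The share of rows in which none of the groups overlap was not computed.

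The host of let-7c-1 separated both transgenic groups from wild type. 2810055G20Rik had 0.765, 0.962, 0.786 and 0.818 CPM in Lin28a-induced, 0.736, 1.04 and 0.483 CPM in no-Cre and 5.22, 7.01 and 4.49 CPM in wild-type libraries. It fell by 2.74 ± 0.245 on the log2 scale in Lin28a-induced (SE; adjusted p = 3.37e-07) and fell by 2.87 ± 0.274 in no-Cre (adjusted p = 9.97e-07) against wild type by edgeR, and the 2 transgenic groups were 0.13 ± 0.281 apart (adjusted p = 0.923). The wild-type libraries are common to both comparisons. Of all rows, 18.3% passed as lower against wild type in Lin28a-induced and 15.4% in no-Cre libraries. The share of rows with both transgenic groups below wild type was not computed. The host of let-7a-2, 2610203C20Rik, had 42.0, 37.5, 19.5 and 20.6 CPM in Lin28a-induced, 27.6, 35.5 and 30.5 CPM in no-Cre and 57.9, 110 and 41.5 CPM in wild-type libraries. Its log2 fold change in Lin28a-induced over no-Cre libraries was -0.07 ± 0.414 (edgeR adjusted p = 0.981), and it fell by 1.23 ± 0.407 against wild type (adjusted p = 0.0493), a call lost without wild-type replicate 1 or 2 (adjusted p = 0.0682 and 0.175) and without Lin28a-induced replicate 3, 4 or 5 (0.0646, 0.107 and 0.111). It was also lost with no filter (0.0596), limma-voom (0.0505), only the groups compared (0.0942) and the sex covariate (0.0862). The log2 fold change of 2610203C20Rik in no-Cre against wild-type libraries was -1.16 ± 0.442 (SE; edgeR adjusted p = 0.086).

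The hosts of let-7g and let-7f-2 and the neighbour of let-7i gave no call between Lin28a-induced and no-Cre libraries. Wdr82 had 240, 247, 251 and 255 CPM in Lin28a-induced and 232, 225 and 245 CPM in no-Cre libraries, with a log2 fold change of 0.09 ± 0.0624 (edgeR adjusted p = 0.647). Huwe1 averaged 759 ± 91.2 CPM in Lin28a-induced and 885 ± 28.3 CPM in no-Cre libraries (SD, n = 4 and 3), with -0.22 ± 0.0899 (edgeR adjusted p = 0.294). Mon2 averaged 105 ± 5.18 CPM in Lin28a-induced and 103 ± 6.99 CPM in no-Cre libraries, with 0.02 ± 0.0669 (edgeR adjusted p = 0.945).

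**Figure D3:**
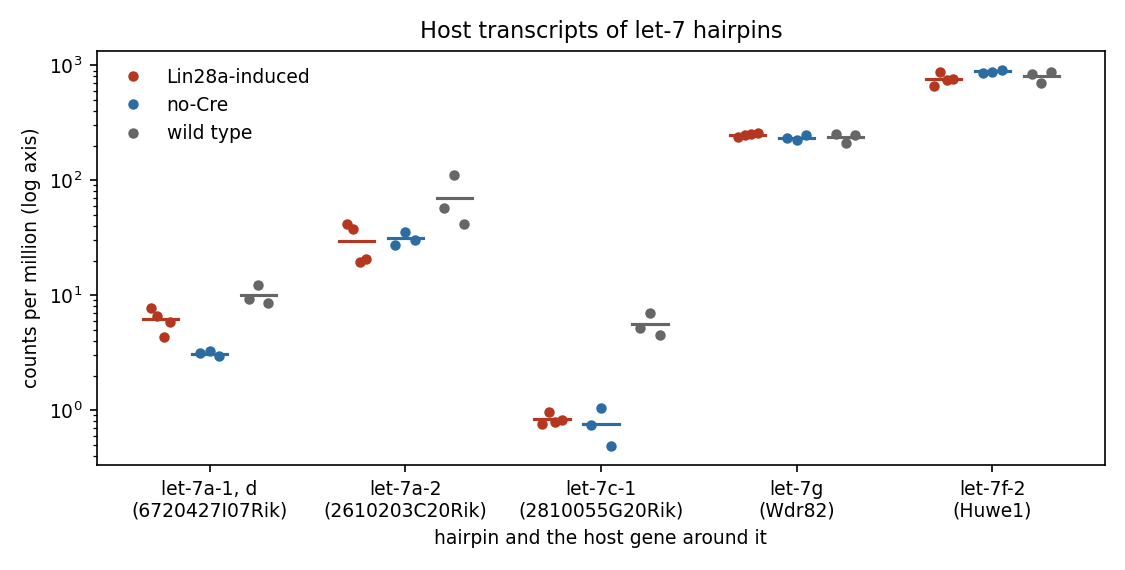
Level of 5 host transcripts in CPM (vertical, logarithmic axis) for the let-7 hairpins each contains (horizontal). Points are libraries in the order Lin28a-induced, no-Cre and wild type, and lines are group means: the 3 groups of 6720427I07Rik do not overlap, and both transgenic groups of 2810055G20Rik lie below wild type.

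The microRNA rows that share an annotated cluster with a let-7 hairpin gave few reads. Mir98, the partner of let-7f-2, and Mir125a and Mir125b-2 were at 0 in all libraries. Mir99a, the partner of let-7c-1, had 2, 3, 1 and 0 reads in Lin28a-induced replicates 2, 3, 4 and 5, against 0, 2 and 0 in no-Cre replicates 6, 7 and 8 and none in wild-type libraries. Mir99b, the partner of let-7e, had 1, 2, 0 and 0 reads in Lin28a-induced, 0, 2 and 0 in no-Cre and 0, 2 and 2 in wild-type libraries, and Mir125b-1 had 1 read, in no-Cre replicate 8. Mir100, beside Mirlet7a-2, had 6, 6, 10 and 0 reads in Lin28a-induced replicates 2, 3, 4 and 5, none in no-Cre and 0, 1 and 0 in wild-type libraries, while Mirlet7a-2 stood at 0. Its log2 fold change over no-Cre was 5.42 ± 1.68 (SE) with an adjusted p of 0.133 by edgeR.

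Mirlet7i was set beside the other microRNA hairpins, 643 rows without host genes. Other here means only that the symbol does not begin with Mirlet7, so Mir98 is among them. Their summed level was 13.0 to 19.4 CPM in Lin28a-induced, 13.8 to 15.1 CPM in no-Cre and 15.5 to 24.4 CPM in wild-type libraries, and these ranges overlap. Of the 61 tested, none rose and none fell between Lin28a-induced and no-Cre libraries, with a median log2 fold change of 0.15 against -0.0014 over all rows. The edgeR test called 397 rows of all kinds there (1.88%), and none of 61 is close to that share. An unadjusted p under 0.05 was found for 2734 rows. Larger log2 fold changes than that of Mirlet7i (4.41) were held by Mir122a (6.57), Mir143 (5.49), Mir100 (5.42) and Mir148a (5.25). Their edgeR adjusted p-values were 0.665, 0.146, 0.133 and 0.382. Against wild type, 1 of the 61 rose in Lin28a-induced libraries (Mir451) and 1 fell (Mir196a-1), beside 20.2% and 18.3% of all rows. In 1 of the 643 rows, Mir26a-2, with 1, 1, 2 and 1 reads in Lin28a-induced libraries and none elsewhere, every Lin28a-induced library lay above every control. Only 210 of the 643 had any read, and Mir26a-2 had too few to be tested. Over the 21133 rows tested, which have at least 10 counts, that share was 5.56%, so the 2 shares are not alike.

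Some other microRNA rows also had more reads in Lin28a-induced than in no-Cre libraries. After the values were seen, 11 of the 643 rows were picked out for having at least 5 reads in Lin28a-induced and at most 1 in no-Cre libraries, so their direction is fixed by the choice. Together they had 95, 22, 36 and 6 reads in Lin28a-induced replicates 2, 3, 4 and 5, against 1, 2 and 0 in no-Cre and 4, 9 and 4 in wild-type libraries. Mir122a alone gave 47 of the 95 reads of replicate 2, and none elsewhere. Mir143 had 7, 3, 13 and 0 reads in Lin28a-induced replicates 2, 3, 4 and 5, none in no-Cre and 1 in wild-type libraries. Mir1945 had 2, 2, 3 and 2 reads in the same 4 libraries, against 1 in no-Cre and 2 in wild-type libraries. Mirlet7i was high in all 4, with its most reads, 27, in replicate 5, whereas the 11 rows had their fewest there and the let-7 rows other than Mirlet7i had 9, 5, 3 and 0. Replicate 5 also differed from the others of its group in sex, with 738 CPM of Xist against 0.465 to 0.817 CPM in replicates 2 to 4, and no-Cre replicate 7 had 877 CPM. With sex as a covariate, Mirlet7i had a log2 fold change of 4.47 over no-Cre (edgeR adjusted p = 0.0256). Whether these rows and the let-7 rows share a source was not tested.

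**Figure D4:**
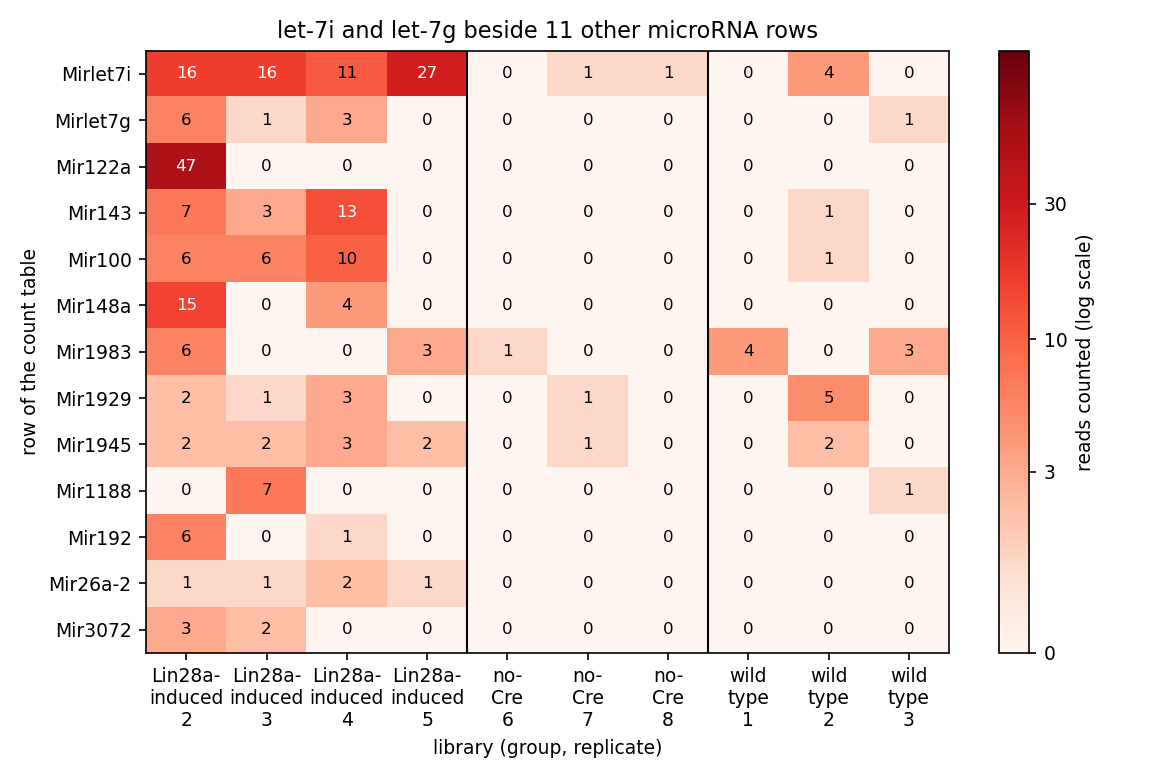
Reads counted in each library (horizontal, group and replicate) for let-7i, let-7g and the 11 other microRNA rows picked out after their values were seen (vertical), with the count in each cell and a logarithmic colour scale. Mirlet7i has 11 to 27 reads in every Lin28a-induced library, while the 11 rows together have 95, 22, 36 and 6 reads in replicates 2, 3, 4 and 5.

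The genes that make, bind or destroy let-7 were listed as 26 genes, all tested. The list was chosen with earlier results of these data known, so its counts do not test these genes as a set. Between Lin28a-induced and no-Cre libraries 5 rose (Lin28a, Trim71, Adar, Tarbp2 and Dicer1), 1 fell (Ago4) and 20 did not pass, with a median log2 fold change of 0.03, where 1.16% of all rows rose and 0.719% fell. Lin28a is the gene that was induced, so its rise, here and against wild type, was set by the design. Dicer1, which cuts the mature microRNA from its precursor, rose by 0.38 ± 0.0827 (SE; edgeR adjusted p = 0.0271), and Tarbp2, its RNA-binding partner, by 0.40 ± 0.0698 (adjusted p = 0.00606). Adar, an RNA editing enzyme, rose by 0.38 ± 0.0629 (adjusted p = 0.00453), and Ago4, an Argonaute, fell by 0.49 ± 0.111 (adjusted p = 0.0308), again by edgeR. Ago4 was named after its values were seen. The Dicer1 call was lost in every fit with 1 library left out other than Lin28a-induced replicate 2 (adjusted p = 0.0719 to 0.143), and the Ago4 call in every such fit other than that without Lin28a-induced replicate 3 (0.0814 to 0.194). For Tarbp2, leaving out no-Cre replicate 7 or 8 gave 0.0534 or 0.0597. Lin28b, the paralog of Lin28a, was 0.20 ± 0.14 apart (adjusted p = 0.645). Against wild type 15 of the 26 rose and 4 fell in Lin28a-induced libraries, beside 20.2% and 18.3% of all rows. In no-Cre libraries 10 rose and 1 fell, beside 17.4% and 15.4% of all rows.

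Of 32 listed let-7 targets, which are the genes mature let-7 is known to repress, 8 rose, none fell and 24 did not pass in Lin28a-induced over no-Cre libraries, with a median log2 fold change of 0.11, where 1.16% of all rows rose. This list too was chosen with earlier results of these data known, so its share beside that of all rows does not test let-7 targets as a set. Trim71, an RNA-binding ubiquitin ligase, averaged 156 ± 21.1 CPM in Lin28a-induced and 67.2 ± 7.96 CPM in no-Cre libraries (SD, n = 4 and 3), and rose by 1.21 ± 0.127 (SE; edgeR adjusted p = 0.00103). Fignl2 rose by 0.77 ± 0.0911 (adjusted p = 0.000491) and Arid3b, of the ARID family of DNA-binding proteins, by 0.66 ± 0.0942 (adjusted p = 0.00246). E2f5, a cell cycle transcription factor, rose by 0.35 ± 0.0579 (adjusted p = 0.00462), and Igf2bp1, an RNA-binding protein, by 0.46 ± 0.0836 (adjusted p = 0.00965), all by edgeR. Igf2bp1 had adjusted p-values of 0.0694 and 0.071 with no-Cre replicate 7 or 8 left out. Against wild type 20 of the 32 rose and 5 fell in Lin28a-induced libraries, where 20.2% of all rows rose and 18.3% fell. In no-Cre libraries 17 rose and 3 fell, where 17.4% of all rows rose and 15.4% fell. Trim71, Lin28b, Dicer1 and Myc are in both lists.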

How the data were processed

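The values are raw counts as deposited by the authors, with a row for each gene symbol and a column for each library, not normalized. Per the labels' protocols, total RNA (Qiagen Micro RNeasy) was made into NEB Ultra Directional libraries and read on a NextSeq 500 as single reads of 75 bases. The submitters' processing notes name STAR 2.3.1z4, featureCounts, DESeq2 and mm10. Neither the annotation release nor featureCounts' handling of strand, of overlapping genes and of reads that align more than once is given in the sources used here.

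Rows with a total of at least 10 counts over the 10 libraries (21133 rows) were scaled with TMM factors and tested with edgeR 4.0.16, using its robust quasi-likelihood test (1 coefficient per group, all libraries in 1 fit), with Benjamini-Hochberg adjustment over all of them and a threshold of 0.05. This filter does not look at groups, and it was used because hairpin counts are low. SE was obtained as the size of the log2 fold change over the root of its F value. CPM uses TMM-scaled totals. A floor of 3 counts over the group stood in for a group at 0. In counts simulated for Lin28a-induced against no-Cre libraries (20786 rows in the fit), the test recovered 42 of 81 rows at a fold of 2, 47 of 56 at a fold of 8 and 61 of 63 at a fold of 20, with 12 false calls. The changed rows were drawn from all rows with a mean of at least 1 count. These rates therefore cover rows of many depths and do not give the recovery at the depth of the hairpins. The rule for named rows was every Mirlet7 row, its cluster partners and hosts, Lin28a and Lin28b, the 5 smallest p-values of each list and the 5 genes most like the Mirlet7 row with the most counts. The members and lists were chosen with earlier results of these data known. Gene positions are GENCODE M21 (GRCm38) and sequences RefSeq GRCm38.p6, the build of the files. Python 3.11.15 (scipy 1.17.1, numpy 2.4.6, pandas 2.3.3, matplotlib 3.10.9) and R 4.3.3 (limma 3.58.1, DESeq2 1.42.0) were used. Alternatives were filterByExpr, no filter, DESeq2, its size factors in edgeR, limma-voom, the edgeR exact test, a spread that is not robust, only the groups compared, a sex covariate, a replicate block and leaving out each library. Lin28a-induced replicate 5 alone was added after the data were examined.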

Additional observations from a re-analysis of the deposited data

Results flagged for a closer look

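Of 43 rows looked at over the 4 Lin28a-induced libraries, 7 had 1 library far from the other 3. Chance gives about 1 in 20 groups for evenly spread values, a rate that does not hold here, since any row with reads in a single library stands out by this measure whatever its count. Mirlet7a-1 stood at 0.0665 CPM (2 reads) and Mirlet7b at 0.0332 CPM (1 read) in replicate 2, with the others at 0. Mirlet7c-1 and Mirlet7f-2 each stood at 0.0583 CPM (2 reads) in replicate 3, with the others at 0. Of the rows that are not let-7, Mir1188 stood at 0.204 CPM in replicate 3, Mir122a at 1.56 CPM and Mir192 at 0.199 CPM in replicate 2. With 1 or 2 reads, the 4 let-7 values are at or under the floor of 3 counts for a library.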

How the results depend on the processing

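No setting turned the direction of any result that had passed. The 397 rows called between Lin28a-induced and no-Cre libraries became 935 with DESeq2, 1697 with only the groups compared, 100 to 282 with 1 library left out and 18 with Lin28a-induced replicate 5 alone, a library picked after the values were seen whose spread is assumed to be that of the other groups. The count of let-7 loci called there, 1, became 0 to 1 with 1 library left out and 0 with replicate 5 alone. Mirlet7i had adjusted p-values from 0.00653 without a filter to 0.0271 with a spread that is not robust under the other edgeR quasi-likelihood settings over all 10 libraries, and 0.000625 with only the groups compared. DESeq2 gave it no adjusted p (unadjusted p = 0.000121). Against wild type, the 8129 rows called became 4008 with a replicate block, 2276 in the same 4 libraries without the block and 3675 with replicate 5 alone, and the let-7 locus called there became 0 in each of these 3 (Mirlet7i adjusted p = 0.0803, 0.154 and 0.086). The shared numbers 2 and 3 do not pair the samples (correlation of deviations -0.00609 and -0.0553). The difference in summed let-7 level was 0.622 CPM over no-Cre and 0.521 CPM over wild type in Lin28a-induced libraries, and -0.101 CPM in no-Cre against wild-type libraries. Without Mirlet7i these were 0.135, 0.065 and -0.0698 CPM, and with 1 library left out the no-Cre difference was -0.162 to -0.0239 CPM. The causes were not tested. A test of a hairpin against its host was not run, since no hairpin with at least 20 counts has a host row. With 98 reads over all let-7 rows, depth limits every locus other than Mirlet7i.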

Other observations

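The genes whose log2 CPM over the 10 libraries was most like that of Mirlet7i, among 12455 rows of at least 1 CPM on average, were Tcirg1, Hps1, Fastk, Bmi1 and Lcor. Tcirg1, a subunit of the vacuolar proton pump, had a Pearson correlation of 0.988 (Spearman 0.963) and averaged 20.1 CPM in Lin28a-induced, 11.9 CPM in no-Cre and 12.8 CPM in wild-type libraries. Bmi1, a Polycomb group gene, had 0.956 (Spearman 0.779) and averaged 92.0 CPM in Lin28a-induced, 61.7 CPM in no-Cre and 67.5 CPM in wild-type libraries. The points share libraries, depth and groups, so these values describe the 10 libraries only.

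Wild-type replicate 2, the library with 4 of the 6 control reads of Mirlet7i, also had the most reads over some other microRNA rows. Its 616 reads over the 643 other microRNA rows were above the 477 and 341 of the other wild-type libraries, and its Malat1 level was 661 CPM against 281 and 327 CPM there. Their part in the Mirlet7i reads of that library was not tested.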
